A study of Mus musculus with 4 samples.

Results

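Long intergenic noncoding RNA (lincRNA) genes are described here in Myc-CaP cells, a mouse prostate cancer line, across a knockdown of focal adhesion kinase and a treatment with norepinephrine. Members were the genes typed lincRNA in the deposited count table that reached 1 CPM (a gene's count divided by the library total and multiplied by 1000000) in at least 1 of 4 libraries, with chromosomes X and Y left out. They numbered 219, of 4439 autosomal lincRNA genes and of 52636 genes in all. They were chosen by their level, so that their being expressed is not a result. A gene that reached 1 CPM only through the library or group where it is high had to differ between libraries, and counts over members are set beside the same counts over the 12351 genes of every type that passed the same level.

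The line carries the Hi-Myc transgene on the FVB strain, and the RNA was total RNA taken into a library kit that keeps no record of strand. Both groups of cells were stably transfected, one with hairpin RNAs against focal adhesion kinase (shFAK; the gene is Ptk2) and the other with a negative control (shNC). Each received 10 µM norepinephrine or vehicle for 24 h. Every combination was sequenced once, so that each difference below compares 2 libraries and has no replicate check, and whether a stable transfection is 1 clone or a pool is not given in the sources used here. Norepinephrine is a stress hormone and neurotransmitter that acts on adrenergic receptors, and focal adhesion kinase relays signals from integrins. Where 4 values follow each other below, they stand in the order shNC with vehicle, shNC with norepinephrine, shFAK with vehicle, shFAK with norepinephrine. The comparisons ask how the hairpin, the hormone and their combination changed expression.

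LincRNAs are transcribed by RNA polymerase II, as messenger RNAs are, and carry no long open reading frame. Some stay in the nucleus, where they build or decorate nuclear bodies, some are precursors from whose introns or exons small nucleolar RNAs and microRNAs are cut, and some bind proteins in the cytoplasm. Most have no known role, and 187 of the 219 carried only a clone or placeholder name.

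Library totals ran from 23410486 counts in shFAK norepinephrine to 29948640 in shNC vehicle. Ptk2, the hairpin's target, had 118 CPM in shNC with vehicle and 114 with norepinephrine, and 49.7 and 53.3 CPM in shFAK, which left 40.8% of the control level in vehicle and 43.9% in norepinephrine. Among epithelial markers Krt8 had a mean of 3.76 CPM, and Krt18, Epcam and Cdh1 were at or under 0.23. The 11 markers of fibroblasts, blood, vessel, nerve and muscle cells lay between 0 and 10.4 CPM, the highest being Pdgfra. In bulk samples, fewer cells of a kind and less RNA per cell cannot be told apart.

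Of the 219 lincRNA genes, 153 reached 1 CPM in all 4 libraries, 20 in 3, 19 in 2 and 27 in 1 only. Those 27 were spread over the 4 libraries, as 7, 6, 6 and 8 genes. The genes just inside the threshold were Gm26782 and Gm12319, with highest values of 1.00 and 1.01 CPM, and those just outside were Gm26651 and Gm38102, both at 0.999. The median member had a mean of 2.22 CPM, against 31.1 for all genes that passed. Only 35 members had a mean of at least 10 CPM and 5 had at least 100.

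A few genes held most of the lincRNA counts. The 3 most abundant, Malat1, Gm26917 and Neat1, took 53.9% of all member counts and the 12 most abundant 72.5%. Autosomal lincRNA genes together took 0.292% of the shNC counts with vehicle (95% exact binomial interval 0.291 to 0.294) and 0.264% with norepinephrine (0.262 to 0.266). In shFAK they took 0.338% (0.336 to 0.340) and 0.437% (0.434 to 0.439). These intervals cover counting error only. The 4 intervals did not overlap, and shFAK norepinephrine stood highest. Gm26917 alone made the last difference: without it in both terms the shares were 0.258, 0.223, 0.303 and 0.289%, and the highest library became shFAK vehicle.

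**Figure D1:**
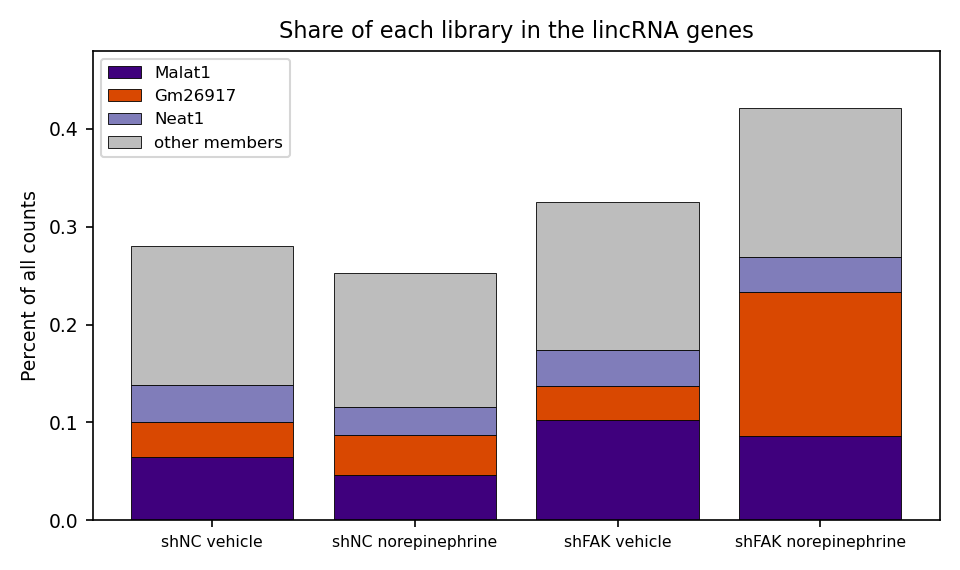
Share of each library's counts, in percent, that fell in the 219 lincRNA genes, stacked as Malat1, Gm26917, Neat1 and the other members. Gm26917 filled 0.148% of the shFAK norepinephrine library and 0.0349 to 0.0407% of each of the others.

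Malat1, a nuclear RNA that gathers at splicing speckles, was the most abundant member. It had 650 CPM in shNC with vehicle and 462 with norepinephrine, and 1026 and 861 in shFAK. Both shFAK libraries stood above both shNC libraries, and within each cell population the norepinephrine library was the lower. The log2 ratio of shFAK over shNC was 0.61 in vehicle (99% counting interval 0.58 to 0.65) and 0.81 in norepinephrine (0.77 to 0.85), which are 1.53-fold and 1.76-fold. The norepinephrine ratio was -0.46 in shNC (-0.50 to -0.42) and -0.26 in shFAK (-0.30 to -0.23). None of these reached the size rule used for calls throughout, a change of at least 2-fold (a log2 ratio of 1) whose 99% interval leaves out 0.

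Neat1 lies next to Malat1 on chromosome 19 and forms the scaffold of paraspeckles. Its levels were 378, 288, 363 and 354 CPM. The shNC norepinephrine library was low and the others lay close together, so that its norepinephrine ratio was -0.36 in shNC (-0.41 to -0.30) and -0.04 in shFAK (-0.10 to 0.01). Its hairpin ratio was -0.10 in vehicle and 0.21 in norepinephrine. The 2 nuclear body RNAs therefore had hairpin ratios of opposite sign in vehicle, while both had norepinephrine ratios under 0. With a length trend taken off, Malat1 kept all 4 signs, but Neat1, the longest of the 12 most abundant members, changed sign in 3 pairs, to -0.25 for the hairpin in norepinephrine and to 0.06 and 0.13 for norepinephrine in shNC and shFAK.

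**Figure D2:**
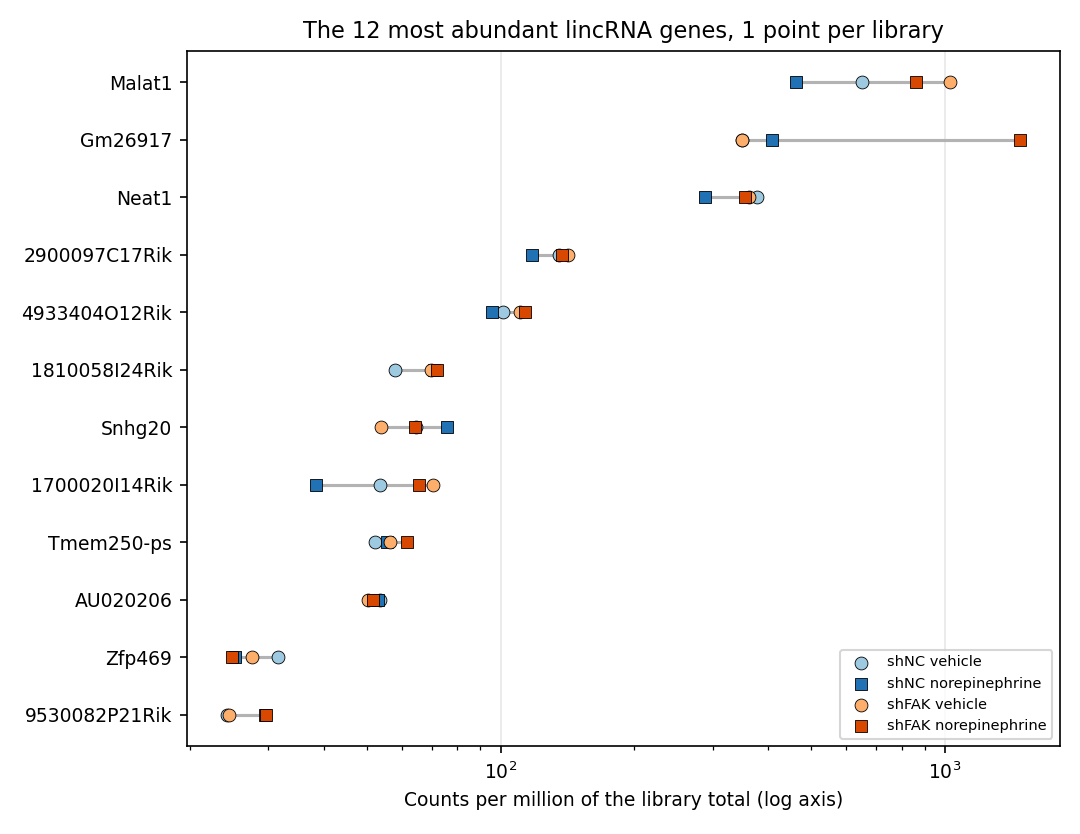
CPM (log axis) of the 12 most abundant lincRNA genes, 1 point per library, with a grey line from the lowest to the highest. Gm26917 spans the widest range, from 349 to 1476 CPM, and Malat1 the next, from 462 to 1026.

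Most of the other abundant members had ratios near 0. The gene 2900097C17Rik is the mouse form of Norad, a cytoplasmic RNA that binds Pumilio proteins, and it had 135, 117, 142 and 138 CPM. Its hairpin ratios were 0.03 and 0.14 and its norepinephrine ratios -0.17 and -0.05. In its longest transcript the Pumilio-type sequence TGTANATA, searched on the transcript's own strand, occurred 11 times, against 0 for the median member. It was found in 22.0% of the 218 members with a transcript in the reference. Gm7292 had the next most, 9 in a transcript of 2527 bases. Per kb Gm7292 had more, 3.56 against 2.24 in the 4915-base transcript of 2900097C17Rik. A match of these letters is a description and not a binding site.

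Among the rest of the 12, 4933404O12Rik had 101, 95.7, 111 and 114 CPM and log2 ratios no farther from 0 than 0.16. Ratios of AU020206 and Tmem250-ps (which overlaps another member, 1810012K08Rik, on the opposite strand) lay between -0.13 and 0.12, those of 9530082P21Rik between -0.08 and 0.32, and those of Zfp469 between -0.29 and -0.11. Zfp469, named as a zinc finger gene, is a member only because the table types it lincRNA. The gene 1810058I24Rik was lowest in shNC vehicle, at 57.8 CPM against 69.8 to 71.9 in the others. The locus 1700020I14Rik had 53.5, 38.3, 70.5 and 65.7 CPM, and both shFAK libraries lay above both shNC libraries, with hairpin ratios of 0.35 and 0.69.

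Per length the order changed. Gm26917 came first, at 194 CPM per kb, before Malat1 at 107. Epb41l4aos was the third at 60.7, with a counted length of 430 bases, and Snhg20 and 2900097C17Rik followed at 29.8 and 27.1. Neat1, with 20771 counted bases, moved to rank 13 at 16.6 CPM per kb.

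Gm26917 was the member that changed most in count. It had 10485 and 11241 counts in shNC, with vehicle and with norepinephrine, and 9091 and 34565 in shFAK. These are 350, 407, 349 and 1476 CPM, and the last stood far above the rest, which lay close together. Its norepinephrine ratio was 2.07 in shFAK (99% interval 2.03 to 2.11; 4.20-fold) and 0.25 in shNC (0.20 to 0.30), and the difference of the 2 responses was 1.82 (1.75 to 1.88). Its hairpin ratio was 1.77 in norepinephrine (1.73 to 1.81) and -0.05 in vehicle (-0.10 to 0.01). All 3 large values rest on the single shFAK norepinephrine library.

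The position of Gm26917 bears on what was counted. It covers chr17:39843013-39846341 on the plus strand of GRCm38 (mm10), as 1 exon block, and overlaps no other gene of the table. It is separated by 11 bases from the transcript of CT010467.1, a gene typed rRNA and annotated on the minus strand. The following sequences are shown because they place this lincRNA: the first is the last 60 bases of Gm26917, at chr17:39846282-39846341, and the second is the plus strand of CT010467.1 from its first base, at chr17:39846353-39846412. Both were read from the GENCODE M21 transcripts, the second as the reverse complement. Capitals mark the first 21 bases of the second.
Gm26917, last 60 bases: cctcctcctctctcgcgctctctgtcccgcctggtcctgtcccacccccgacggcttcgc
CT010467.1, plus strand: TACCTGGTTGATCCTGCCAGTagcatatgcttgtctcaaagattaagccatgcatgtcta
The capitals are the well-known 5′ start of eukaryotic 18S ribosomal RNA. RefSeq lists the ribosomal pseudogene Rn18s-rs5 over nearly the same bases. In a ribosomal DNA repeat, the bases just before 18S belong to the external transcribed spacer, which RNA polymerase I transcribes as part of the ribosomal precursor and which is cut off during its maturation. G and C made up 69.1% of Gm26917.

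CT010467.1 itself had 90, 75, 113 and 120 counts, or 3.01, 2.72, 4.34 and 5.13 CPM. Its level in shFAK norepinephrine was thus less than 2-fold above each of the others, while that of Gm26917 was more than 3-fold above each. The mitochondrial rRNA genes had 269, 308, 369 and 367 CPM, and the shFAK norepinephrine library did not stand apart in them. Gm42418 and AY036118, annotated at the same locus, had 0 counts in all 4 libraries; how reads in overlapping genes were counted is not given in the sources used here. Whether ribosomal precursor RNA carried into the library accounts for the Gm26917 counts was not tested.

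Genes that host small nucleolar RNAs (snoRNAs, guides of ribosomal RNA modification) were the largest named group. Of 21 names listed, 14 passed the level and 6 of those were typed lincRNA: Snhg20, Epb41l4aos, Snhg12, Snhg6, Snhg18 and Dancr. None of the 6 passed the size rule in any pair. In norepinephrine all 6 hairpin ratios were below 0, from -0.74 to -0.23 with a median of -0.40, against 0.02 for all genes. In vehicle 5 of 6 were below 0, with a median of -0.29 against 0.00. The 6 are short, with counted lengths of 430 to 2347 bases, against a median of 3981 for all genes. Over all genes the hairpin ratio rose with counted length (Spearman correlation 0.32 in vehicle and 0.47 in norepinephrine). The part of length in the ratios of the 6 together was not tested.

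Snhg20 had 64.4, 75.6, 53.8 and 64.2 CPM, so that norepinephrine stood above vehicle and shNC above shFAK at each level of the other factor. Its hairpin ratios were -0.30 (-0.44 to -0.17) and -0.32 (-0.45 to -0.20), and its norepinephrine ratios 0.26 in shNC and 0.25 in shFAK. Snhg6 had 20.97, 20.83, 16.76 and 17.90 CPM, and its 2 shFAK libraries were the lower, with hairpin ratios of -0.37 (-0.60 to -0.13) and -0.30 (-0.55 to -0.07). Epb41l4aos had 26.2, 32.9, 21.7 and 23.5 CPM and hairpin ratios of -0.32 and -0.57. Snhg12, with 24.3, 29.1, 23.5 and 22.2 CPM, was highest in shNC norepinephrine. Dancr had 5.075, 6.413, 4.305 and 4.058 CPM, and the 99% interval of its norepinephrine ratio in shNC, 0.37 (-0.05 to 0.79), held 0. Norepinephrine ratios of the 6 had a median of 0.28 in shNC and 0.00 in shFAK, against 0.00 for all genes in both.

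The 8 further snoRNA hosts that passed, such as Gas5, Snhg1 and Zfas1, are typed otherwise in the table and are no members. Over all 14 the median hairpin ratio was -0.13 in vehicle and -0.31 in norepinephrine, and none passed the size rule.

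MicroRNA hosts were represented by Mir17hg, which carries the miR-17-92 cluster, a set of oncogenic microRNAs that Myc is known to induce, and by Mir155hg. Mir17hg had 25.94, 24.97, 21.45 and 21.49 CPM. Its shFAK libraries were the lower, with ratios of -0.32 in vehicle (-0.53 to -0.11) and -0.30 in norepinephrine (-0.52 to -0.08), and its norepinephrine ratios were -0.02 and -0.01. The 6 microRNA genes inside it had 0 counts in all libraries, and the kit is not one for small RNAs, so the host's level says nothing of the mature microRNAs. Their mature sequences (RefSeq, GRCm38, chromosome 14, plus strand) are shown to identify what the transcript carries, with the seed, bases 2 to 8, in capitals.
mmu-miR-17-5p: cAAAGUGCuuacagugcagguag
mmu-miR-20a-5p: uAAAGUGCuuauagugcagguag
mmu-miR-18a-5p: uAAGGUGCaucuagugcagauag
mmu-miR-19a-3p: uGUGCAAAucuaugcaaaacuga
mmu-miR-19b-3p: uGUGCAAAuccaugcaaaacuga
mmu-miR-92a-3p: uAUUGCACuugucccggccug
miR-17 and miR-20a shared the seed AAAGUGC and the miR-19 pair the seed GUGCAAA, while miR-18a and miR-92a each had a seed of their own. Mir155hg, host of a microRNA best known from activated immune cells, had 3.17, 2.65, 2.65 and 2.52 CPM, with intervals that held 0 in all 4 pairs.

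Pvt1, which lies beside Myc and is often co-amplified with it, had 7.48, 7.90, 7.23 and 7.39 CPM. Its 4 libraries differed by less than counting error in every pair. Lncpint, a p53-responsive RNA, had 0.868, 0.580, 1.27 and 1.24 CPM, and its intervals held 0 as well. Of the imprinted and Hox-linked RNAs listed, none was a member. Some passed the level but are typed otherwise in the table. These were the imprinted Kcnq1ot1 and Peg13, at means of 10.7 and 6.50 CPM. From the Hox-linked list they were Crnde and Hotairm1, at 6.21 and 6.17. H19, a fetal RNA, had 0 counts in all libraries. Meg3, an imprinted growth suppressor, had 4, 0, 2 and 6 counts, and Hotair had 0, 0, 1 and 0.

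Past the size rule, 25 of the 219 members changed in at least 1 of the 4 pairs, or 11.4%, against 4.79% of all genes. Split by level, the shares lay closer. Of the 57 members with a mean of at least 5 CPM, Gm26917 was the only one, or 1.75%, against 1.37% of all genes at that level. Of the 162 members below it, 24 passed, or 14.8%, against 18.4% of all genes there. Within each range the members' share was thus near the background. Of the 25, 19 had a mean under 2 CPM, and 8 had reached 1 CPM in a single library. Members named below with a mean under 2 CPM were named after their values were seen.

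**Figure D3:**
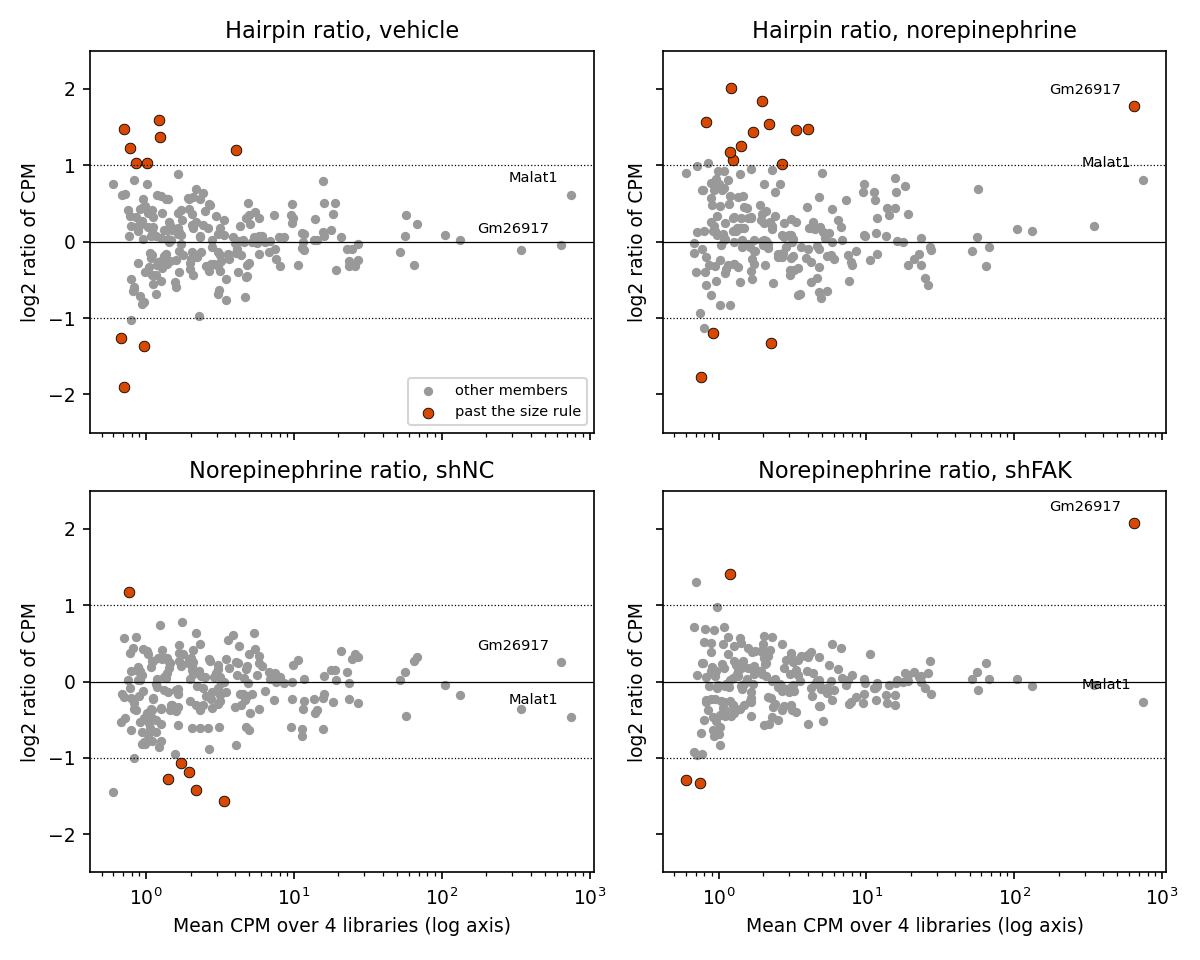
Log2 ratio of CPM against mean CPM (log axis) for the 219 lincRNA genes, 1 panel per pair of libraries, with members past the size rule in orange and dotted lines at a 2-fold change. Apart from Gm26917, every orange point has a mean of at most 4.04 CPM.

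Between hairpins, 7 members were higher and 3 lower in shFAK in vehicle, where 1.42% and 0.462% of all genes were. In norepinephrine 12 were higher and 3 lower, against 2.62% and 0.632%. Among the 12 was CT009718.1, whose ratio ran from 0.88 to 1.09 over the settings run. Its call was lost with DESeq2 size factors, the length trend, no level filter or a prior count of 10. The median ratio of the members was 0.06 in vehicle and 0.09 in norepinephrine, beside 0.00 and 0.02 for all genes. Of the 10 members past the rule in vehicle, 2 also passed in norepinephrine in the same direction, Gm38399 and AC121286.1, both higher in shFAK. Over all genes, 175 were higher and 57 lower in vehicle, and 95 and 20 of these also passed in norepinephrine in the same direction. As shares of all genes, 0.769% were higher in both and 0.162% lower in both. Of the members 0.913% were higher in both, and no member was lower in both. None of these figures was matched by level.

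Gm38399 had 87, 43, 181 and 111 counts, or 2.90, 1.56, 6.96 and 4.74 CPM. Both shFAK libraries lay above both shNC libraries. Its hairpin ratio was 1.20 in vehicle (0.73 to 1.72) and 1.48 in norepinephrine (0.85 to 2.23), or 2.29-fold and 2.78-fold. It spans chr1:135606447-135688105 and overlaps Nav1 (a neuron navigator, a microtubule-associated protein) on the same strand. Their start sites lie 80810 bases apart. A run of 134 bases, 8.15% of its 1645-base transcript, is identical to a Nav1 transcript, so reads from that run could belong to either gene. Nav1 had hairpin ratios of 0.36 and 0.64, the same sign and smaller.

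AC121286.1 had 20, 9, 58 and 38 counts, and again both shFAK libraries were the higher. It reached 1 CPM in those 2 libraries only, so that the level filter chose it through the group where it is high, and its ratios are a description. Its ratios were 1.59 (0.73 to 2.77) and 2.01 (0.87 to 3.87), the largest of the increases that passed in each pair. It overlaps no expressed gene, and its nearest expressed coding gene, Rdh14, lies 165978 bases away with ratios of -0.35 and -0.40. The counts are small and the intervals accordingly wide.

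With the 99% interval alone and no size limit, 13 members were higher in shFAK in both pairs, against 17% of all genes, and 5 were lower in both, against 16.6%. Malat1, 1700020I14Rik and Gm13219 were among the 13. Gm13219 had 11.95, 10.04, 21.45 and 19.14 CPM and ratios of 0.80 and 0.84, under the 2-fold limit in both pairs. It is a multi-exon gene whose nearest expressed coding gene, Gata3, lies 409402 bases away. The 5 lower ones were Snhg20, Epb41l4aos, Mir17hg, Snhg6 and 1700007L15Rik, so that 3 of the 5 were snoRNA hosts. An interval narrows with the count, and members have lower counts than most genes.

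The gene 1700007L15Rik had 3.01, 3.22, 1.54 and 1.32 CPM. Its shFAK libraries were both below its shNC libraries. It passed the size rule in norepinephrine, at -1.32 (-2.21 to -0.59), and missed it narrowly in vehicle, at -0.98 (-1.77 to -0.30). It starts divergently from Zfp148, a zinc finger transcription factor gene 48 bases away, whose ratios were 0.21 and 0.26, of the opposite sign. With a trend in gene length taken off, the norepinephrine value no longer passed.

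The other members past the rule in vehicle had between 6 and 47 counts per library. Of those higher in shFAK, F420014N23Rik, Gm26563 and Gm26668 overlap exons of Pip4k2c, Suz12 and Eftud2 on the opposite strand. Reads from those genes, at 1937 to 11298 counts per library, cannot be told apart from theirs without strand. Their partners' hairpin ratios lay between -0.12 and 0.32. Gm13481 and AC155637.1, which overlap no expressed gene, had ratios of 1.22 and 1.48. A prior count of 10 ended both calls. The level filter may have chosen them through the shFAK libraries, where they are high, so their values are a description. The 3 lower ones were 1810044D09Rik, Mirt1 and Gm26782, at -1.37, -1.90 and -1.27. Gm26782 overlaps an exon of Tep1 on the opposite strand. Mirt1 had 31, 24, 6 and 16 counts, and Gm26782 had 30, 18, 10 and 16. Both reached 1 CPM only in shNC vehicle, where they are high. The level filter therefore chose them for such a ratio, and their values are a description.

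**Figure D4:**
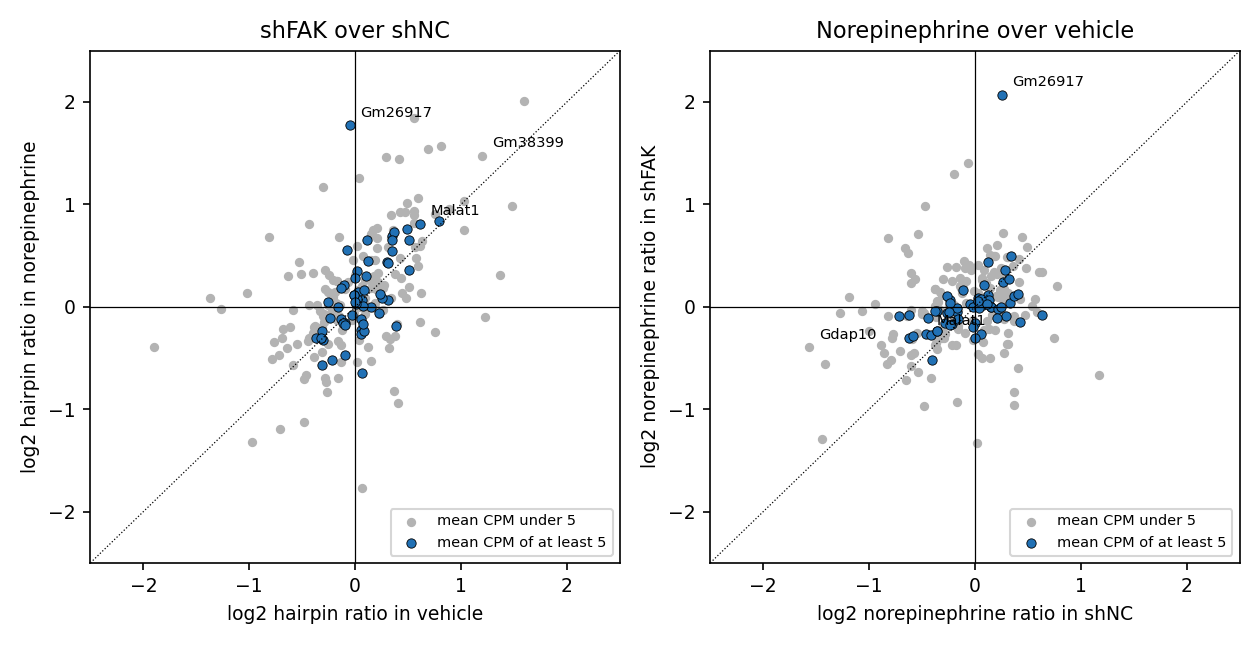
Left, log2 hairpin ratio (shFAK over shNC) in norepinephrine against that in vehicle; right, log2 norepinephrine ratio in shFAK against that in shNC, 1 point per lincRNA gene, with members of at least 5 CPM in blue and the dotted line marking equal ratios. Gm26917 lies far above that line in both panels, and Gm38399 is high on both axes of the left one.

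For norepinephrine over vehicle, 1 member was higher and 5 were lower in shNC, against 0.364% and 0.494% of all genes. In shFAK 2 were higher and 2 lower, against 0.696% and 0.178%. No member passed in both cell populations in either direction, where 0.0405% of all genes were higher and 0.0243% lower. Median ratios were -0.06 in shNC and -0.01 in shFAK, with 0.00 for all genes in both.

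The 5 lower in shNC were Gdap10, 2610037D02Rik, C130083M11Rik, Gm29323 and Gm26724. Gdap10 had 113, 33, 124 and 85 counts. The shNC norepinephrine library was the only low one. Its norepinephrine ratio was -1.57 in shNC (-2.42 to -0.89) and -0.39 in shFAK (-0.95 to 0.13), and the difference was 1.17 (0.28 to 2.07). Gdap10 lies inside an intron of Nampt, an enzyme of NAD synthesis, on the same strand, and Nampt itself had ratios of -0.09 and -0.04. Nampt had 2791 to 3654 counts per library. Whether reads from its unspliced RNA were counted as Gdap10 was not tested.

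The same library was low for the rest. In 2610037D02Rik the counts were 63, 20, 92 and 56, in C130083M11Rik 51, 19, 68 and 66, in Gm29323 49, 20, 59 and 52, and in Gm26724 49, 17, 45 and 39. Their norepinephrine ratios in shNC were -1.42, -1.19, -1.07 and -1.28, and in shFAK -0.56, 0.10, -0.04 and -0.06. Because the hairpin ratio in norepinephrine and the norepinephrine ratio in shNC share the shNC norepinephrine library, these 5 genes also appear among the 12 higher in shFAK in norepinephrine. Gm26724 overlaps an exon of Lemd2 on the opposite strand, and Lemd2 had a ratio of 0.52 in shNC. Arid2, a chromatin remodelling subunit 3023 bases from 2610037D02Rik, had ratios of -0.58 in shNC and -0.23 in shFAK.

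The single member higher in shNC was 9430002A10Rik, with 18, 39, 17 and 9 counts and a ratio of 1.17. In shFAK the 2 higher ones were Gm26917 and Rncr4. Rncr4, a gene first described in retina, had 28, 24, 20 and 51 counts and was high in shFAK norepinephrine alone, with a ratio of 1.41. The 2 lower ones, 4732419C18Rik with 23, 21, 28 and 9 counts and Gm26692 with 19, 5, 30 and 10, were at -1.33 and -1.30. Gm26692 was also at -1.45 in shNC, with a 99% interval that held 0. It lies opposite Rpap2. Apart from Gm26917, the genes of this paragraph each reached 1 CPM only in the library where they are high. The level filter therefore chose them for such ratios, and their values are a description.

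**Figure D5:**
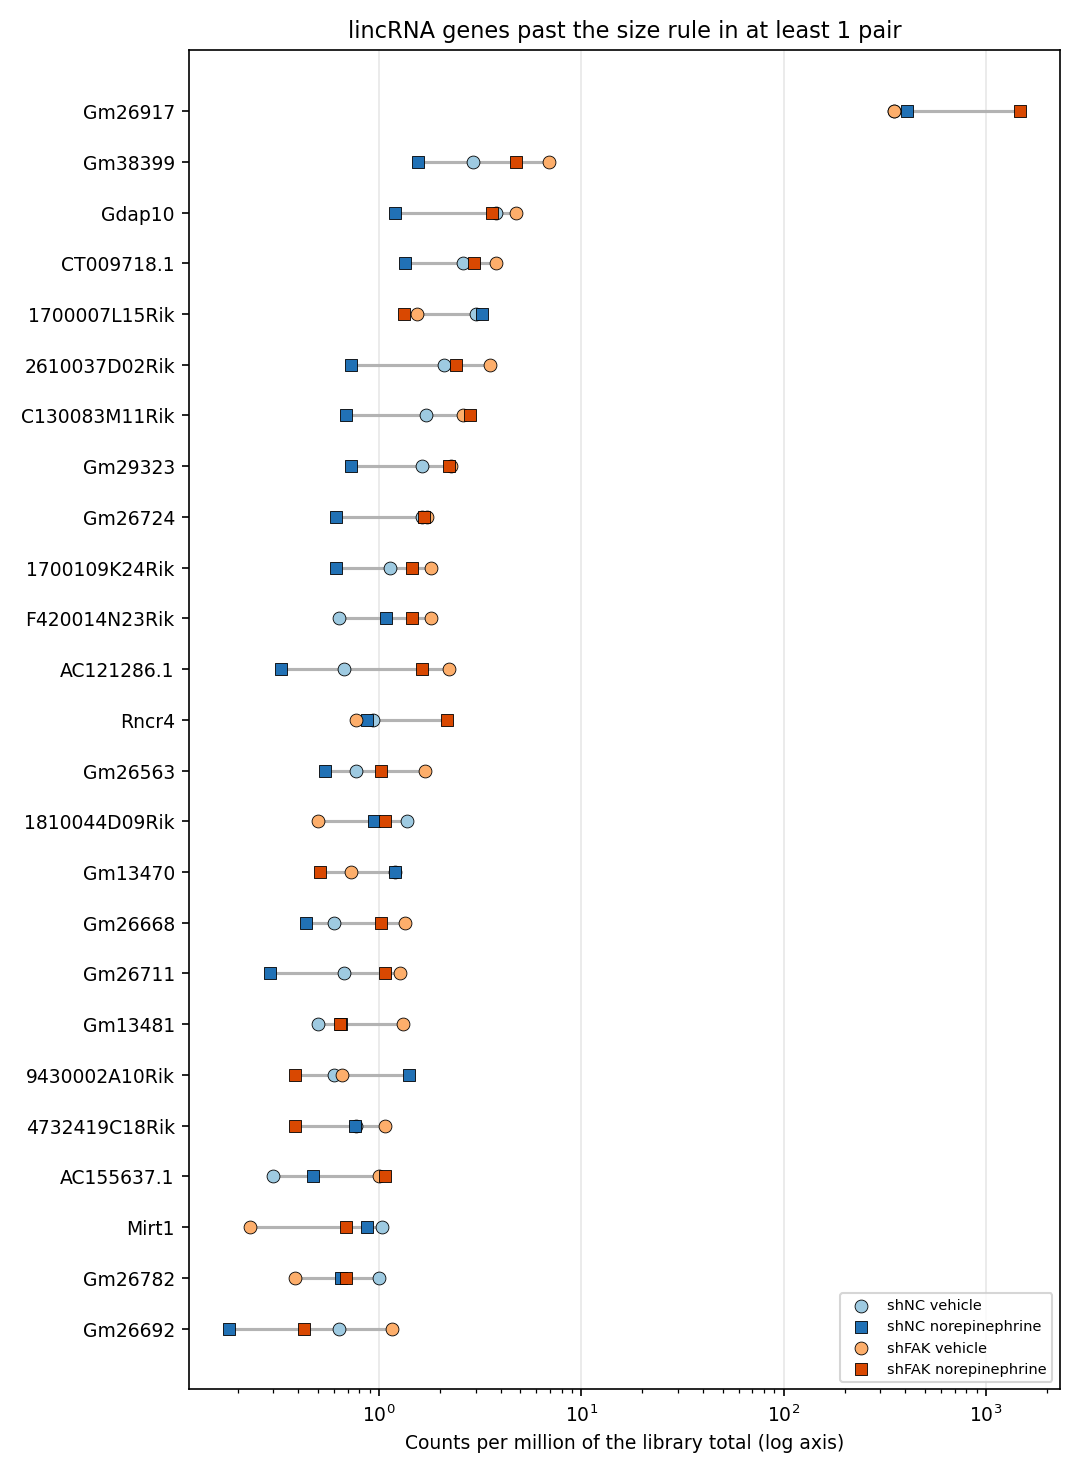
CPM (log axis) of the 25 lincRNA genes past the size rule in at least 1 pair, ordered by mean level, 1 point per library. Gm26917 stands apart at 349 to 1476 CPM, and the other genes lie under 7 CPM in every library.

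With the interval alone, 3 members were higher with norepinephrine in both cell populations, Gm26917, Snhg20 and 9530082P21Rik, against 6.95% of all genes. The 4 lower in both, against 9.95%, were Malat1, 5430416N02Rik, 4632404H12Rik and Gm38399. The gene 9530082P21Rik had 24.2, 29.5, 24.4 and 29.7 CPM, so that its 2 norepinephrine libraries lay together above its 2 vehicle libraries. In 5430416N02Rik the levels were 17.2, 10.8, 19.3 and 15.7 CPM and the norepinephrine ratios -0.63 and -0.30.

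The difference between the norepinephrine responses of the 2 cell populations, which share no library, passed the size rule for 5 members. It was higher in shFAK for Gm26917, Gdap10, C130083M11Rik and Rncr4, at 1.82, 1.17, 1.29 and 1.47, against 0.551% of all genes. It was lower for 9430002A10Rik, at -1.84, against 0.235%. Rncr4 and 9430002A10Rik each reached 1 CPM only in the 1 library where they are high, so that the level filter chose them for it. For Gdap10 and C130083M11Rik the shNC response was the larger in size, and for Gm26917 and Rncr4 the shFAK response.

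Across the 219 members, hairpin ratios in vehicle and in norepinephrine had a Spearman correlation of 0.54, and norepinephrine ratios in shNC and in shFAK one of 0.32. The members with at least 5 CPM gave 0.62 and 0.57, and all genes 0.70 and 0.49. These are descriptions across genes of 4 libraries. In all, 109 members, or 49.8%, stayed within 0.5 on the log2 scale in all 4 pairs, against 73.0% of all genes. These shares were not matched by level. The median member had a mean of 2.22 CPM against 31.1 for all genes, and counting error is larger at low counts.

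Gene length moved with the ratios, less so in the lincRNA genes than in all genes. The Spearman correlation with counted length was 0.17 and 0.20 for the members' hairpin ratios in vehicle and norepinephrine, and -0.18 and -0.12 for their norepinephrine ratios in shNC and shFAK. Over all genes it was 0.32, 0.47, -0.49 and -0.29. Members have lower counts than most genes, and no set matched by level was compared. The part of length in the members' ratios was not tested beyond taking off a length trend.

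Overlap with other genes limits what can be assigned to the lincRNAs. Of the 219, 115 overlapped the body of another annotated gene, 64 that of an expressed gene and 39 an exon of one. In all, 88 had a near-identical stretch in a transcript of another gene. With every member that overlaps any annotated gene, expressed or not, left out, 104 members stayed. Those past the rule in vehicle were then 1 higher (of 7) and 1 lower (of 3). That omission also takes out AC121286.1, Gm13481 and Mirt1, which overlap no expressed gene. In GENCODE M21, 197 members were typed lincRNA, while 12 were antisense, 5 divergent at a promoter and 4 processed transcripts.

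Neighbouring coding genes were weakly related to the members. In 42 cases the nearest expressed coding gene started divergently within 1 kb, in 43 it overlapped the member, in 18 the member lay downstream on the same strand within 5 kb, and 116 had another layout. The Spearman correlation of a member's ratio with its neighbour's lay between 0.08 and 0.35 for the divergent pairs over the 4 comparisons, and between -0.03 and 0.26 for the overlapping ones. Over all 219 it lay between 0.03 and 0.14. Neighbours of a divergent pair share a start region, and overlapping ones can share reads.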

How the data were processed

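RNA from 4 Myc-CaP cultures was sequenced, 1 library per group. Per the submitters' processing notes, the authors used HISAT2 2.0.5, featureCounts 1.5.0-p3 and mm10, and deposited whole-number counts per gene; how multi-mapped or overlapping reads were counted is not given in the sources used here. From these counts, effective library sizes came from edgeR 4.0.16 (TMM, over the 12351 genes with at least 1 CPM in a library), and log2 ratios of CPM used a prior count of 2. The size rule asked for a 2-fold change and an exact 99% Clopper-Pearson interval of the 2 counts without 0 (for the difference of responses, a normal interval on the log scale). Intervals cover counting error only, and with 1 library per group no p-value was computed. The rule was checked on simulated counts. Genes named are the 12 most abundant members and those past the size rule with a mean of at least 2 CPM. Genes listed by role and those at the threshold are named too. Others were named after their values were seen, among them Gm13219, 4632404H12Rik and 5430416N02Rik. Near-identical stretches (at least 95% identity over 100 bases) came from minimap2 2.31. Members and lists were chosen with earlier results of these data known. Alternatives, DESeq2 1.42.0 size factors among them, are in the closing section. Some epithelial markers that were checked are not reported here.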

Additional observations from a re-analysis of the deposited data

Results flagged for a closer look

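In 5 lincRNA genes the norepinephrine responses of the 2 cell populations differed past the size rule, by an interval of the difference that covers counting error only. Gm26917 differed by 1.82 on the log2 scale (shFAK minus shNC), with responses of 0.25 in shNC and 2.07 in shFAK. For Gdap10 the difference was 1.17, from -1.57 and -0.39. C130083M11Rik differed by 1.29, from -1.19 and 0.10, with a lower bound of 0.11. For Rncr4 it was 1.47, from -0.07 and 1.41, with a lower bound of 0.06. The value for 9430002A10Rik was -1.84, from 1.17 and -0.67, with an upper bound of -0.01. Rncr4 and 9430002A10Rik reached 1 CPM only in the 1 library where each is high, so that the level filter had chosen them for such a difference, and their values are a description.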

How the results depend on the processing

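None of the 35 ratios that passed the size rule changed sign under any alternative scaling, filter, prior count or length correction, and 19 passed in every one run; a prior count of 10 ended 15 calls, and the length trend 3. Of 888 recomputed ratios that had not passed, 24 left their 95% counting interval, among them those of Neat1 under the length trend. Counts of members past the rule moved by over 1.5 times as follows, higher before lower. Without a level filter there were 13 higher for the hairpin in vehicle, 3 and 9 for norepinephrine in shNC, and 4 lower in shFAK. With at least 5 CPM in a library the counts were 1 and 0 (hairpin, vehicle), 2 and 0 (hairpin, norepinephrine), 0 and 0 (norepinephrine, shNC), 1 and 0 (norepinephrine, shFAK) and 1 and 0 (difference of responses). With a mean of at least 1 CPM they were 4 and 0 for the hairpin in vehicle, 1 lower for the hairpin in norepinephrine, and 0 higher in shNC, 0 lower in shFAK and 0 lower for the difference. A prior count of 10 gave 3 higher for the hairpin in vehicle, 0 and 3 for shNC, 0 lower for shFAK, and 2 and 0 for the difference. A 1.5-fold limit gave 12 and 8, 27 and 8, and 4 and 15 for the hairpin in vehicle, the hairpin in norepinephrine and norepinephrine in shNC, and 2 lower for the difference. A 95% interval gave 9 and 4 for the difference. The length trend left 1 lower for the hairpin in norepinephrine and gave 8 and 0 for the difference, and library size alone gave 0 lower for the difference. Without overlapping members there were 1 and 1 for the hairpin in vehicle, 3 higher for it in norepinephrine, 1 lower in shNC, 0 lower in shFAK and 2 higher for the difference. Leaving out members with a near-identical copy, chosen after seeing the data, gave 3 and 1 for the hairpin in vehicle and 1 lower in shFAK. For the filters and the omissions, fewer or more genes tested is part of the construction; for the others the cause was not tested.

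The lincRNA share of counts, in shNC with vehicle and with norepinephrine and then in shFAK likewise, became 0.190, 0.189, 0.199 and 0.316% without Malat1 and Neat1. It was 0.122, 0.122, 0.130 and 0.243% without lincRNA genes that overlap another gene. That omission also takes out Malat1 and Neat1, which overlap annotated genes but no expressed one. Leaving out Gm26917, chosen after seeing the data, gave 0.258, 0.223, 0.303 and 0.289%. The median member had a mean of 2.22 CPM, and at such counts changes under 2-fold were mostly within counting error.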

Other observations

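More lincRNA genes were detected in the smallest library than in the others. With any count, 1264 autosomal lincRNA genes appeared in shFAK norepinephrine, against 1086 in shNC vehicle, 983 in shNC norepinephrine and 955 in shFAK vehicle. Those with counts in 1 library alone numbered 327 in shFAK norepinephrine and 171, 102 and 95 in the others, in the same order. Genes of every type showed the same order, with 23121 detected in shFAK norepinephrine and 20442 to 21678 in the others. A further 1540 autosomal lincRNA genes had a count somewhere but stayed under 1 CPM, and 2680 had none.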
